A study of Drosophila melanogaster with 4 samples.

Results

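The clusters described here are groups of transcription start sites that lay inside the protein-coding part of a gene, on the gene's own strand, in the testis of Drosophila melanogaster. They were found by cap analysis of gene expression (CAGE), in which each sequenced tag marks the 5' end of a capped RNA. A cluster was taken when its most used position, the dominant position, lay more than 100 bp from any annotated start on the same strand, outside 5' UTRs, and in a coding exon of the gene models of Ensembl release 115 (dm6 coordinates). By this rule 11039 of 43632 consensus clusters were members, 25.3% (95% Wilson interval 24.9 to 25.7), in 5981 of 13968 protein-coding genes. The dominant position came from the knockdown table in 9359 members and from the control table in 1680.

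The control males carried bamGAL4, a driver active in late spermatogonia, and the knockdown males carried bamGAL4 with KmgRNAi. In both groups crosses stood at 25 °C for 3 days before a shift of the offspring to 29 °C as eggs or larvae, and a library was made from 150 pairs of testes, pooled from males aged 0 to 2 days, without amplification. The RNAi was thus driven in the germ line, in a single knockdown genotype, while the whole testis was measured. Each group had 2 libraries, which the tables give as 1 pooled value, so that no difference below has a replicate check and no test across samples was possible. Control libraries were read at 76 bp and knockdown libraries at 150 bp, so the genotype and the read length cannot be told apart.

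RNA polymerase II normally starts at promoters upstream of the coding sequence. An RNA that starts inside a coding exon lacks the start codon of the full protein and can give at most a truncated one. Such starts, often called cryptic, are known from yeast and animal cells in which chromatin over gene bodies is disturbed. The protein Kmg, which has zinc fingers, is made in spermatocytes and binds the chromatin remodeler Mi-2.

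Levels are given as tags per 1000000 tags in the clusters of the same table (TPM), and pairs of levels are in the order control, knockdown. The tables held 56519714 control tags and 34975246 knockdown tags. Levels at annotated starts sum the clusters whose dominant position lay within 100 bp of one, so tags of a member that reaches an annotated start are not in them. The targeted gene kmg, at 48.5 and 11.6 TPM over its own clusters, was 4.19-fold lower after RNAi and had 0 members. Of 19 germline marker genes, 18 reached 1 TPM at annotated starts in each table, and bam was at 0 there in both. Their levels summed to 13265 and 10188 TPM, a sum over changes in both directions. Mst84Da went from 2227 to 4700 TPM and twe from 64.8 to 224 TPM. Also higher in the knockdown were piwi, aly, sa, fzo, Mst87F and ProtA. In contrast, dj went from 2716 to 541 TPM and ProtB from 2276 to 560 TPM. Also lower were vas, aub, can, comr, topi, djl, Mst98Ca and betaTub85D. Of 9 markers of somatic cyst cells and the hub, 8 reached 1 TPM in each table, with sums of 144 and 78.0 TPM, and CadN was at 0 in both. Fas3 by itself went from 82.9 to 5.58 TPM and ptc from 14.7 to 3.29 TPM. The markers tj and eya were also lower in the knockdown, while zfh1, so, upd1 and hh were higher. Over the 25902 consensus clusters called in both tables, 5038 of them members, the median log2 ratio, knockdown over control, was 0.71. At annotated starts, the median over 9109 protein-coding genes with start tags in both tables was -0.08. Ratios below are best read against both values, since the shift of 0.71 was not seen at annotated starts.

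Of all control tags, 1.83% fell in coding-exon clusters, and of all knockdown tags 10.9% did. Clusters at annotated starts held 91.5% and 70.2%. A tag cluster was called in the knockdown for 10831 members and in control for 5246. No control cluster was called in 5793 members, 52.5% (51.5 to 53.4), against 37.7% of all consensus clusters. No knockdown cluster was called in 208 members, 1.88% (1.65 to 2.16), against 2.92% of all. The median member stood at 3.46 TPM in the knockdown. In the 5038 members called in both tables, the median log2 ratio without a pseudocount was 3.05, or 8.29-fold.

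A member was called gained when log2((knockdown + 1) / (control + 1)) in TPM was 2 or more, a 4-fold difference, and lost when it was -2 or less. Members within these limits that were called in both tables were called shared. The rule was applied to the 10870 members with at least 1 TPM in either table. Of these, 5054 were gained, 46.5% (45.6 to 47.4), where 33.1% of all 43134 tested consensus clusters were gained. Another 80 were lost, 0.736% (0.592 to 0.915), where 3.61% of all were lost. Shared members numbered 2810, and 2926 were called in 1 table only without reaching the 4-fold limit. In 4681 of the gained members the control level was under 1 TPM, so these passed the filter through the knockdown alone. After rescaling to a median ratio of 1 over clusters called in both tables, 3348 members were gained, 33.4%, against 22.0% of all clusters. The share gained was close to that of clusters antisense to genes (47.5%) and between genes (45.7%), and far from that of annotated starts (7.56%).

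**Figure D1:**
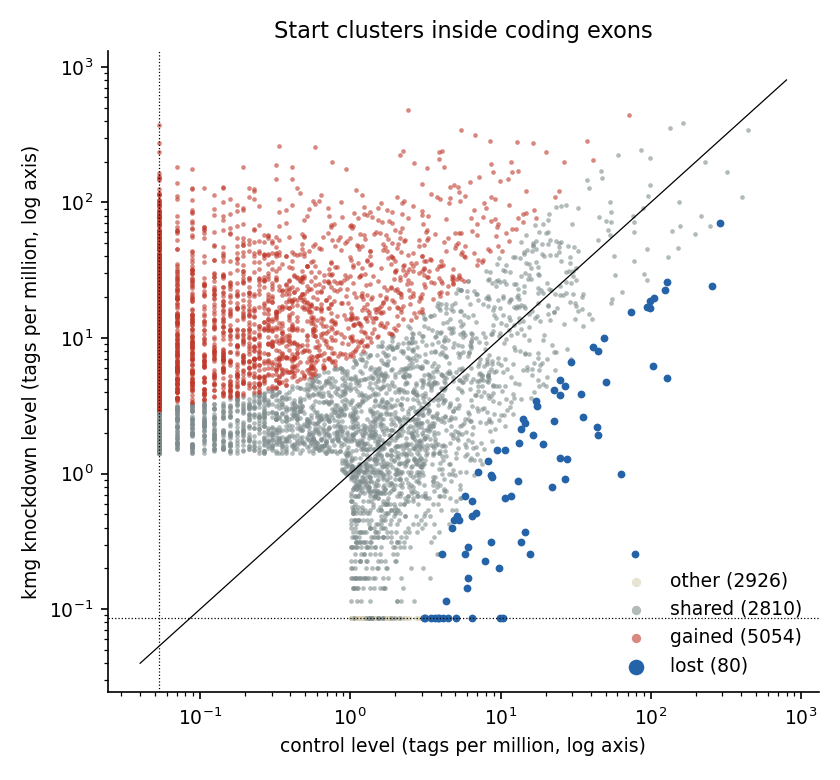
Level of each tested coding-exon cluster in control (x axis) and in the kmg knockdown (y axis), in TPM on log axes, coloured by the 4-fold rule; counts are in the legend, the solid line marks equal levels, and values below 3 tags are drawn at that floor (dotted lines). The 5054 gained clusters fill the upper left, many of them at the control floor, and the 80 lost clusters lie below the line.

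The strongest gained clusters lay in genes of varied function, and in 6 of the 10 strongest the annotated starts of the host gene had under 1 TPM in control. The highest was in CG33342, on chromosome 3R from 24377057 to 24377272 on the plus strand, with 2.44 and 484 TPM, 198-fold higher in the knockdown (counting interval 168 to 236). It lay in the second of 4 coding exons, 212 bases after the start codon, and no tags were called at the annotated starts of this gene in either table. The cluster of CG4730 on 3R from 25677754 to 25677898 went from 6.81 to 313 TPM, 46.0-fold (41.5 to 51.0). Its host likewise had no tags at annotated starts. The cluster of CG16815, on 2L from 13229955 to 13230261, had 0 control tags and a knockdown level of 369 TPM, at least 6956-fold higher over a floor of 3 tags per table. The host start stood at 0 and 4.80 TPM. The cluster of CG32374, on 3L from 7540604 to 7540831, had 0 control tags and 276 TPM, at least 5203-fold higher, with the host start at 0 and 2.17 TPM. The cluster of CG14655 on 3R from 4777943 to 4778187 went from 5.48 to 342 TPM in the last of 3 coding exons, beside 0.142 and 1.80 TPM at the annotated starts. In the knockdown these coding-exon clusters thus stood far above the annotated starts of the same genes.

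Other strong gained clusters lay in genes with an active promoter. The cluster of pug, a folate pathway enzyme, on 3R from 10701315 to 10701480, went from 12.8 to 278 TPM, 21.7-fold (20.1 to 23.4). Its annotated starts stood at 23.9 and 8.49 TPM, a difference below the 4-fold rule. The cluster of CG6686 on 2L from 11984745 to 11984868 lay 92.3% of the way along the coding sequence and went from 8.53 to 282 TPM, while the host start was at 8.10 and 0.801 TPM. ATPsynB encodes subunit b of the mitochondrial ATP synthase. Its cluster on 3L from 9730410 to 9730850 went from 16.3 to 276 TPM, 16.9-fold (15.8 to 18.1), and its annotated starts stood higher than the cluster in both tables, at 264 and 449 TPM.

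The remaining strong gained clusters had higher control levels. The cluster of CG30428 on 2R from 25253645 to 25253889 went from 72.1 to 442 TPM, 6.13-fold (5.92 to 6.35), and was no longer called after rescaling, at 1.89. The gene trem encodes a zinc finger protein needed for meiotic recombination in the female fly. Its cluster on 3R from 20031120 to 20031305 went from 37.5 to 283 TPM, 7.54-fold (7.20 to 7.91). Its dominant position lay 18 bases after the start codon and 117 bp from the annotated start, just past the 100 bp limit of the rule. No cluster had its dominant position within that limit, but the trem cluster itself reached close to the annotated start.

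The limit itself cut through a continuous set. Clusters in coding exons over 50 and up to 100 bp from an annotated start, just outside the rule, numbered 130 and had median levels of 0.743 and 4.60 TPM. Members up to 150 bp away numbered 201, with medians of 0.637 and 3.06 TPM, and members over 150 and up to 200 bp away numbered 327, with medians of 0.301 and 2.60 TPM.

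Shared members included strong starts close to the start codon. By the lower of both levels, the strongest was in Cyp1, which encodes a cyclophilin (a peptidyl-prolyl isomerase), on X from 16320092 to 16320381, with 444 and 343 TPM. Its dominant position lay 170 bp downstream of the annotated start, which the cluster itself spanned. No cluster had its dominant position within 100 bp of that start. Prosbeta4R1, a proteasome beta subunit relative, had 165 and 386 TPM in a cluster on 2L from 2653060 to 2653359. The annotated start lay 140 bp upstream of the dominant position, close to the edge of the cluster. Again no cluster had its dominant position within 100 bp of it. The cluster of wash, an activator of actin nucleation, on 2R from 12180707 to 12180891, had 323 and 168 TPM and lay 91 bases after the start codon. That of DppIII, a dipeptidyl peptidase, on 3R from 8344758 to 8344996, had 403 and 109 TPM and was called lost after rescaling, at -2.58. Of the 6 strongest shared members, those in CG14712 and Neos lay deeper in the gene. CG14712 had 231 and 199 TPM at 53.6% of the coding sequence, against 3.27 and 4.03 TPM at its annotated starts. Neos had 134 and 355 TPM at 30.7%, against 14.1 and 26.1 TPM.

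Of the 6 strongest lost members, 4 were wider than 100 bp, and 5 sat in genes with over 100 TPM at annotated starts in control. The genes dj (don juan) and djl (don juan-like) encode proteins of the sperm tail. The dj cluster on 3R from 7059550 to 7059892 was 197 bp wide and went from 256 to 24.3 TPM, 10.5-fold lower, while the dj annotated start went from 2716 to 541 TPM. The djl cluster from 7061051 to 7061546 was 232 bp wide and went from 105 to 19.9 TPM, 5.28-fold lower, while its annotated start went from 1396 to 323 TPM. Each cluster and its own promoter were thus lower in the knockdown. In whole testes, fewer cells of a type and less RNA per cell cannot be told apart. CG9016 had 290 and 70.3 TPM in a cluster 295 bp wide, while its annotated starts stood at 221 and 268 TPM, so that the coding-exon cluster passed the limit and the annotated starts did not. With a pseudocount of 3 TPM the cluster narrowly missed the limit. The cluster of eff, a ubiquitin-conjugating enzyme gene, on 3R from 14733491 to 14733635, went from 128 to 5.06 TPM, 25.3-fold lower, with the host start at 861 and 467 TPM. The clusters of CG43755 and CG42232 went from 129 to 25.9 TPM and from 125 to 22.5 TPM.

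Position along the coding sequence differed between the classes. The median dominant position of gained members was at 49.3% of the coding sequence (quartiles 27.5 and 70.4), or 764 bases after the start codon. That of shared members was at 36.1% (16.2 and 63.5), or 382 bases, and that of lost members at 41.0%. With the coding sequence cut into 10 equal parts, the first held 16.5% (15.2 to 18.0) of the shared and 8.33% (7.60 to 9.12) of the gained members. It held 8.74% of all coding bases that could hold a member, those outside 5' UTRs and over 100 bp from annotated starts. Gained members were most frequent in the seventh, with 12.5% (11.6 to 13.5) of members on 10.2% of the bases. They were least frequent in the last, with 4.61% (4.07 to 5.22) on 10.2% of the bases. Beyond the dominant position, 242 codons of the reading frame remained at the median of gained members. Clusters of 1 gene share their source, so these intervals cover counting error only.

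**Figure D2:**
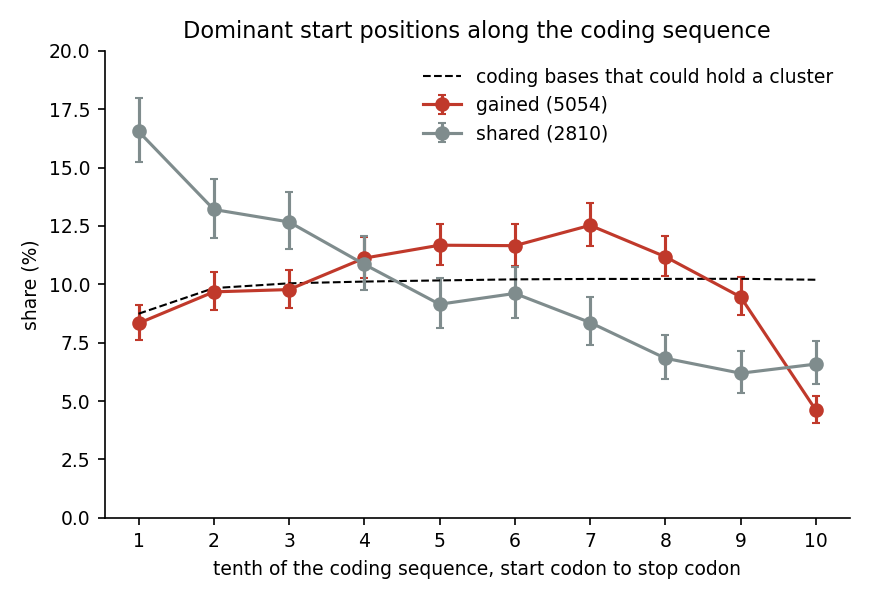
Share of dominant start positions (y axis, %) in 10 equal parts of the coding sequence from the start codon to the stop codon (x axis) for gained and shared coding-exon clusters with 95% Wilson intervals, and the share of coding bases that could hold a cluster (dashed). Shared clusters decline from 16.5% in the first to 6.58% in the last, and gained clusters peak at 12.5% in the seventh and stand at 4.61% in the last.

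Some gained clusters lay very far from the start codon of the longest coding sequence of the gene. Among gained members of at least 10 TPM, the farthest was in sls, which encodes the titin-like muscle protein Sallimus. It lay 35328 bases after the start codon in coding exon 25 of 40, with 0 control tags and 15.8 TPM, at least 297-fold higher. The next were in Strn-Mlck, a gene of the myosin light chain kinase family (22684 bases, 0 control tags and 17.6 TPM), and in spen, a gene for a nuclear RNA-binding protein (15519 bases, 0 control tags and 10.2 TPM). The Strn-Mlck cluster lay only 1137 bp downstream of the nearest annotated start on its strand. Annotated starts of these hosts stood at 3.36 and 1.74 TPM for sls, 0.920 and 2.12 TPM for Strn-Mlck, and 21.9 and 47.1 TPM for spen. Inner coding exons held 47.9% (46.5 to 49.3) of gained and 35.7% (33.9 to 37.4) of shared members. In genes with several coding exons, 3.23% (2.75 to 3.80) of gained and 6.68% (5.71 to 7.80) of shared members lay within 10 bases of an exon edge, as did 4.94% of the coding bases that could hold one.

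Dominant positions were unevenly spread over the 3 bases of the codon. The first base held 43.4% (42.5 to 44.3) of all members, the second 28.6% (27.7 to 29.4) and the third 28.0% (27.2 to 28.9). The coding bases that could hold a member were split evenly, with 33.3% on the first base. The excess was seen in gained (44.1%, 42.8 to 45.5) and shared members (41.8%) and on every large chromosome arm, from 41.5% on 2L to 44.9% on 2R. With 1 cluster per gene, that with most tags, it was 43.7%. The strongest gained members, of at least 100 TPM, had 52.5% of their 99 dominant positions on the first base. In gained members at 3 to 10, 10 to 30 and 30 to 100 TPM the shares were 43.7%, 43.5% and 46.8%. The higher share thus rests on the 99 strongest clusters and was given no interval. Clusters antisense to genes whose dominant position lay opposite a coding exon showed another pattern, with 19.7% (18.4 to 21.1) opposite the first base and 40.9% (39.2 to 42.5) opposite the second. For the 263 annotated-start clusters that fell in a coding exon, 36.9% (31.3 to 42.9) lay on the first base, an interval that includes an even split.

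**Figure D3:**
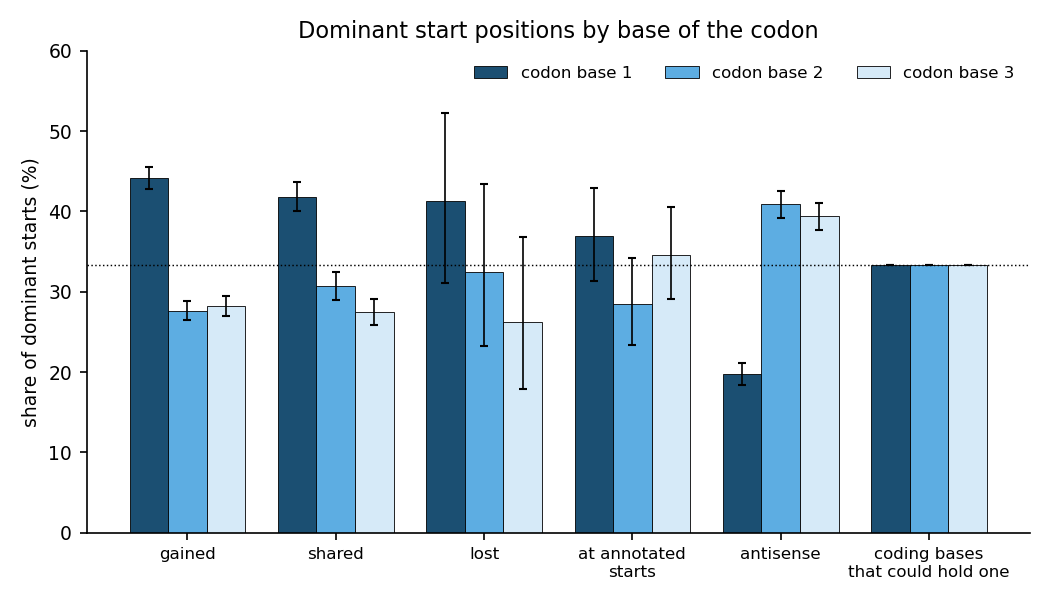
Share of dominant start positions (y axis, %) on codon bases 1, 2 and 3 for gained, shared and lost coding-exon clusters, annotated-start clusters within coding exons, antisense clusters opposite coding exons, and the coding bases that could hold a cluster; bars carry 95% Wilson intervals and the dotted line marks an even split. The first base stands at 44.1% in gained and 41.8% in shared clusters, and at 19.7% in antisense clusters.

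The interquantile width, the span in bp that holds the middle part of a cluster's tags, had a median of 44 bp over all members. It was 57 bp in gained, 40 bp in shared and 56 bp in lost members. Sharp clusters, of 10 bp or less, made up 4.33% (3.81 to 4.93) of gained and 16.4% (15.1 to 17.9) of shared members, against 22.4% of shared clusters at annotated starts. Width was larger in stronger clusters, and at like levels the median of gained members was close to or below that of shared ones. At 3 to 10 TPM in the higher table, the median was 51 bp in gained and 50 bp in shared members. At 10 to 30 TPM it was 63 bp in gained and 81 bp in shared members, and at 30 to 100 TPM it was 67 and 95 bp. In the same ranges sharp clusters made up 6.65%, 1.10% and 1.26% of gained and 11.1%, 3.00% and 1.05% of shared members. Another 1595 shared members stood at 1 to 3 TPM, where 22.4% were sharp and the rule allows no gained member. Widths over 100 bp were found in 13.4% of gained, 10.1% of shared and 35.0% (25.5 to 45.9) of the 80 lost members.

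The extremes of width among gained members of at least 10 TPM showed different forms of start. The widest lay in Cyp6a18, a cytochrome P450 gene (391 bp, 2 control tags and 26.4 TPM), in Srp72, a signal recognition particle subunit (368 bp, 0.124 to 113 TPM), and in Hr78, a nuclear receptor gene (365 bp). The Hr78 cluster went from 16.6 to 88.3 TPM and was not called after rescaling, at 1.64. The narrowest were 1 bp wide. In Prx4, a peroxiredoxin gene, 98.6% of the tags of the cluster fell on 1 position, with levels of 1.89 and 70.0 TPM. In CG5539 the whole cluster was 1 position, with 1.04 and 67.2 TPM. The CG34109 cluster, also of 1 position, had no called control tags and 16.0 TPM, at least 50.4-fold higher over a floor of 18 tags, since the consensus value held 18 tags beyond both tables.

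The dominant position moved between tables more often in coding exons than at annotated starts. Among members of at least 5 TPM in both tables, 202 of 424 had dominant positions over 10 bp apart, 47.6% (42.9 to 52.4). At annotated starts this was 26.8% (25.8 to 27.9) of 6822 clusters. The same position was dominant in 46.7% (42.0 to 51.5) of the members and 63.7% (62.6 to 64.9) of the annotated starts.

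Gained and shared members differed in how they followed the promoter of the host gene. Host genes were ordered by the control level summed over clusters at their annotated starts. In 4161 genes with no such tags in either table there were 14.7 gained and 3.48 shared members per 100000 coding bases that could hold one. In 4145 genes at 10 to 100 TPM there were 29.7 gained and 12.5 shared members. In 1580 genes at 100 to 1000 TPM there were 32.8 gained and 76.1 shared members. In the 108 genes at 1000 TPM or more, gained members dropped to 6.88 per 100000 bases, from 5 members in all, and shared members reached 242. Lost members went from 0.205 per 100000 bases at 10 to 100 TPM to 15.1 at 1000 TPM or more. From genes under 1 TPM upward, shared members thus became denser at every step of promoter level, while gained members did so up to 1000 TPM and over a smaller range. A cluster with more control tags needs a higher knockdown level to be called gained. The call can therefore set part of these trends, which was not tested.

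**Figure D4:**
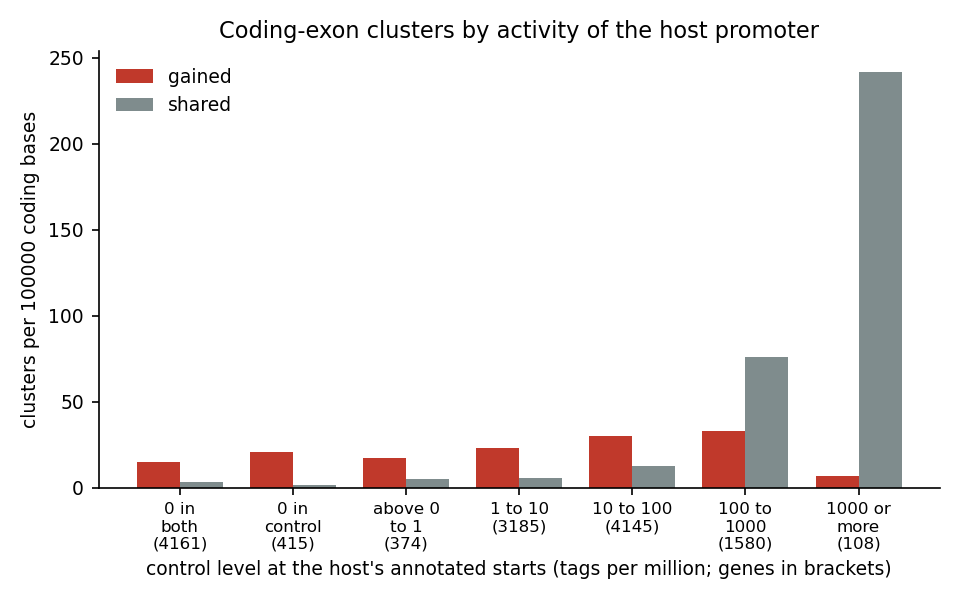
Coding-exon clusters per 100000 coding bases that could hold one (y axis) in protein-coding genes grouped by their control level at annotated starts in TPM (x axis; number of genes in brackets), for gained and shared clusters. Gained clusters range from 6.88 to 32.8, the former from 5 clusters in the 108 genes of highest promoter level, where shared clusters reach 242.

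The clusters were also set against the promoter of the host gene. By its definition a gained member has at least 3 TPM in the knockdown, and a shared member has no such floor, so the call itself fixes part of the difference between these values. Where the host had start tags in both tables, the median shared member reached 1.02% of the control level and 2.79% of the knockdown level at the host's annotated starts, over 2590 members. The median gained member reached 54.3% of the host's annotated starts in the knockdown, over 4004 members. The annotated starts of these hosts had median levels of 16.9 and 16.7 TPM. Spearman's rho between the levels of cluster and host start was 0.37 in control and 0.02 in the knockdown across these shared members. Across gained members it was 0.17 in control, over the 1783 with tags there, and 0.00 in the knockdown. The levels of a cluster and its host come from the same libraries, and several members can share a host, so these are descriptions.

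At the annotated starts, genes with gained members had a median ratio close to that of genes without members. The median log2 ratio at annotated starts was -0.09 in 2859 genes with a gained member and start tags in both tables, and -0.03 in 4325 genes without a member. It was -1.33 in the 60 genes with a lost member. Of 4729 host genes with at least 1 TPM at annotated starts in control, the summed members exceeded the annotated starts in 115 (2.43%) in control and in 1509 (31.9%) in the knockdown. In 1403 genes this held in the knockdown and not in control, and in 9 it held in control and not in the knockdown. This comparison is made within each table, so it does not rest on the scaling between them.

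A few genes carried many members spread over much of the coding sequence. The gene salto had 17, of which 16 were shared, from 2.96% to 99.2% of a coding sequence of 2496 bases. They summed to 84.8 and 82.5 TPM, 25.5% and 16.0% of the level at its annotated starts. The last of them, at 99.2%, was the only gained one, with 5.75 and 40.3 TPM, and this call ended after rescaling, at 1.92. Gpdh3, a glycerol-3-phosphate dehydrogenase gene, had 15 members that summed to 60.6 and 6.60 TPM, while its annotated starts went from 191 to 33.5 TPM. CG4836 had 13, with sums of 183 and 41.9 TPM beside annotated starts of 2416 and 721 TPM. CG16972 had 11 and no tags at annotated starts. Its 2 gained members went from 0.177 to 18.0 TPM and from 1.29 to 10.2 TPM, and the call of the latter ended after rescaling, at 1.66. In all, 3214 host genes (53.7%) had 1 member and 242 (4.05%) had 5 or more. Neighbouring members of 1 gene lay a median of 329 bp apart.

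**Figure D5:**
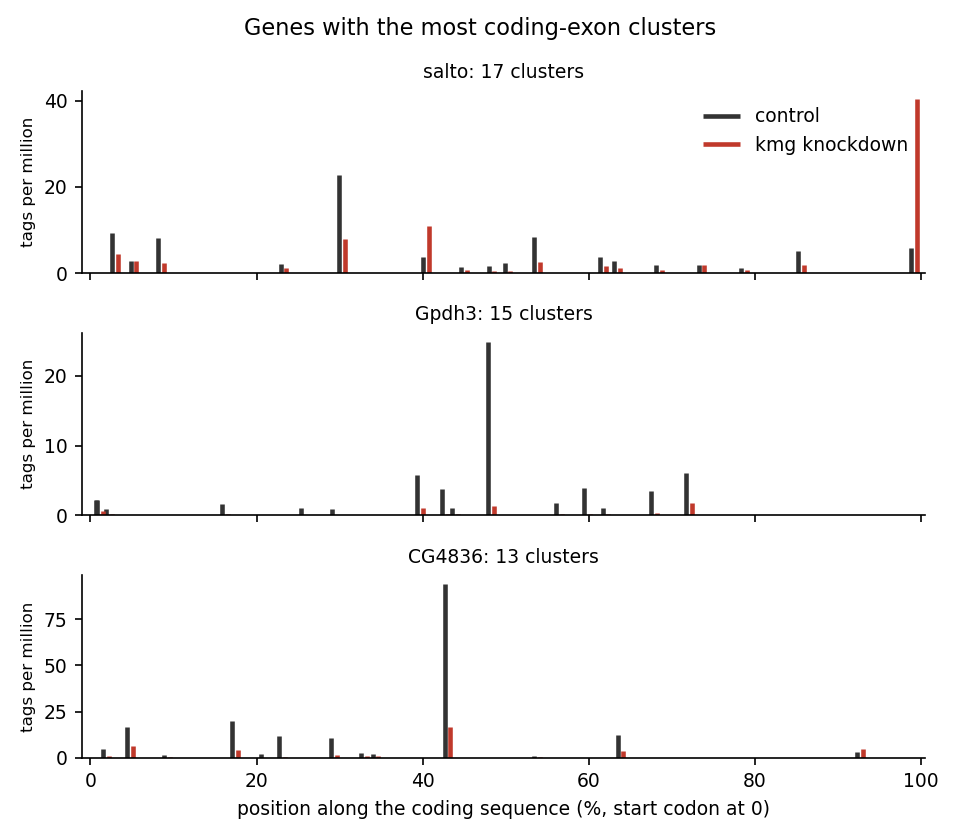
Level of each coding-exon cluster (y axis, TPM) against its position along the coding sequence (x axis, %, start codon at 0) in salto, Gpdh3 and CG4836, for control (dark) and the kmg knockdown (red). The clusters run along most of each gene, and in Gpdh3 their sum went from 60.6 to 6.60 TPM.

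Host genes were also grouped into families by their symbols. Over all protein-coding genes, 26.2% had a gained member, with 23.3 gained and 12.9 shared members per 100000 bases. Families active in all cells or in sperm were rich in shared members. The 92 cytosolic ribosomal protein genes held 79 shared, 18 gained and 1 lost member, or 180 shared members per 100000 bases, beside a median of 258 TPM at annotated starts in control. The 9 genes of sperm-leucylaminopeptidases, abundant proteins of the sperm tail, held 38 shared and 4 gained members, 262 shared per 100000 bases. The strongest, in loopin-1, had 35.4 and 21.3 TPM. Genes of this family and of the ribosomal proteins have close copies that can share reads. The 28 Mst and don juan genes of sperm held 24 shared, 3 gained and 3 lost members. In the tubulins, 11 genes held 15 shared, 7 gained and 2 lost members, and the strongest, in alphaTub84B, went from 94.9 to 26.7 TPM, which was shared by the 4-fold rule and lost after rescaling, at -2.47. Gained members were also denser than over all genes in the ribosomal protein (41.0), tubulin (46.6) and sperm-leucylaminopeptidase genes (27.6). They were less dense in the Mst and don juan genes (14.7). In the same order, 15.2%, 36.4%, 44.4% and 10.7% of the genes had a gained member.

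Several families with a median annotated start level of 0 in both tables held gained members and few shared ones. The density of gained members was above the 23.3 of all genes in cuticle and Osiris genes and below it in the receptor, odorant-binding protein and P450 genes. In 122 cuticle protein genes, 1 member was shared and 29 were gained, the latter in 22 genes (18.0%), with 37.0 gained members per 100000 bases. Their strongest was in TwdlS, of the Tweedle cuticle family, with 5 control tags and 83.4 TPM. In 179 odorant, gustatory and ionotropic receptor genes, 3 were shared, 1 was lost and 34 were gained, the latter in 30 genes (16.8%), or 14.2 gained members per 100000 bases, led by the co-receptor gene Ir25a (0 control tags and 78.7 TPM). In 25 Osiris genes, 8 were gained, or 34.4 per 100000 bases, and 0 shared, led by Osi22 (0 control tags and 236 TPM). The 51 odorant-binding protein genes held 5 gained and 0 shared members, led by Obp58b (0 control tags and 61.6 TPM). The 83 cytochrome P450 genes held 15 gained members, or 12.2 per 100000 bases, and 3 shared ones, led by Cyp12a4 (0 control tags and 98.4 TPM).

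Most lists of nervous system and patterning genes had fewer gained members per base than all genes, with 4.62 to 11.5 per 100000 bases, except the Hox genes with 24.0. By share of genes, 29.4% of the potassium channel genes had a gained member, and 6.25% to 13.6% of the genes in the other lists. Synaptic vesicle release genes, 22 in number, held 6 gained and 1 shared member in coding exons. The strongest, in Rop, a partner of the membrane fusion protein syntaxin, lay 25 bases after the start codon and went from 14.1 to 82.6 TPM. This cluster also spanned the annotated start, 207 bp upstream of its dominant position. Its gained call ended after rescaling, at 1.76. Potassium channel genes held 5 gained members in 5 of 17 genes, led by Shaw (0.159 to 26.0 TPM). The 32 dpr and DIP genes of neuronal surface proteins held 2, led by dpr11 (4.56 to 99.5 TPM). Of 8 Hox genes, pb alone had members, 3 in number and all gained, the strongest at 3.47 and 37.4 TPM. Of 17 gap and pair-rule genes, 2 had a gained member, the stronger in prd at 0.142 and 6.89 TPM. That call was lost with a pseudocount of 3 TPM, at 1.65.

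In lists of chromatin and germline regulators, 35.3% to 44.4% of the genes had a gained member, beside 26.2% of all protein-coding genes. Per 100000 bases the gained members numbered 36.4 in the NuRD list and 29.8 in the tMAC and testis TAF list, but 22.0 in the Polycomb and 18.0 in the piRNA list, below the 23.3 of all genes. Of 9 genes of Kmg and the NuRD remodelling complex, 4 had gained members, 8 in all, and 0 were shared. The strongest was in simj, which encodes the p66 subunit, in coding exon 6 of 8, at 0.407 and 95.8 TPM. Of 17 Polycomb group genes, 6 had gained members, 11 in all, the strongest in Scm (0.195 and 21.2 TPM). Of 25 piRNA pathway genes, 9 had gained members, led by vas, a germline RNA helicase, at 82.7% of the coding sequence (0.743 and 36.3 TPM). Its annotated start stood at 29.7 and 19.4 TPM. Of 12 genes of the tMAC complex and testis TAFs, which drive spermatocyte transcription, 5 had a gained member, the strongest in topi (1.11 and 14.0 TPM). Proteasome subunits held 22 gained and 21 shared members in 48 genes, and mitochondrial ribosomal proteins 23 and 9 in 73 genes, led by mRpS26 (3.03 to 136 TPM). Both densities of gained members, 44.7 and 48.9 per 100000 bases, were above the 23.3 of all genes. By share of genes, 35.4% of the proteasome and 24.7% of the mitochondrial ribosomal protein genes had a gained member, beside 26.2% of all.

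The last families held few members each. All had fewer gained members per 100000 bases than the 23.3 of all protein-coding genes, from 1.71 in Y-linked to 22.3 in serine protease genes. By share of genes with a gained member, only the 8 dynein heavy chains, at 37.5%, stood above the 26.2% of all genes. In sarcomere genes 6 were gained, 9 shared and 1 lost, the last in the muscle actin gene Act87E (26.9 to 4.40 TPM), whose annotated start went from 598 to 83.8 TPM. Act87E has close paralogs that can share reads. Basement membrane genes held 3 gained members, led by wb, a laminin alpha chain (2.87 to 47.6 TPM). Accessory gland genes held 3, led by Acp32CD (5 control tags and 176 TPM), and serine proteases 5, led by iotaTry (0 control tags and 45.0 TPM). UDP-glycosyltransferases held 10, led by Ugt35A1 (5 control tags and 63.5 TPM). Dynein heavy chains held 4 over 106 kilobases, led by Dhc64C (0 control tags and 11.3 TPM). Among 117 histone genes 4 members were shared and 1 was gained, in a His2B copy (4 control tags and 5.09 TPM), a call lost after rescaling at 1.94 and uncertain because the copies are near-identical. Among 11 Y-linked fertility genes 1 was gained, in Pp1-Y1 (0 control tags and 22.8 TPM), which also has a close copy.

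The X chromosome was poor in members of both classes. It held 11.5 gained and 6.75 shared members per 100000 coding bases that could hold one. On the arms of chromosomes 2 and 3 these densities were 24.5 to 26.7 and 13.6 to 16.0. Limited to genes with at least 1 TPM at annotated starts in control, 20.3% of 1418 X-linked genes had a gained member, while 32.4% to 33.9% did on the 4 large autosomal arms. The median control level at the annotated starts of these genes was 13.9 TPM on X and 18.0 to 21.9 TPM on those arms. Shared members were found in 12.6% of these X-linked genes and in 18.3% to 22.2% on those arms. The part of promoter level in this difference was not tested. Chromosome 4 held 14.2 gained members per 100000 bases, but 20 of its 55 genes with at least 1 TPM at annotated starts in control had one, 36.4%. The Y chromosome held 2 members in all.

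A cluster on the opposite strand lay close upstream of a gained member more often than of a shared one, by intervals of counting error. A dominant position within 300 bp upstream on the other strand was found for 14.9% (14.0 to 15.9) of gained, 8.72% (7.73 to 9.82) of shared and 0 of 80 lost members, and for 18.1% of shared clusters at annotated starts. A count of 0 in 80 allows a share of up to 4.58% (Wilson). Within 300 bp downstream, the shares were 9.14% of gained and 8.29% of shared members. Among members of at least 10 TPM in either table, 16.4% (14.9 to 18.0) of gained and 10.5% (7.72 to 14.2) of shared ones had an upstream partner. Among gained members of at least 50 TPM, 19.4% (15.5 to 24.0) had an upstream partner and 6.67% (4.44 to 9.89) a downstream one. The CG33342, ATPsynB and Srp72 clusters were among those with an upstream partner.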

How the data were processed

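CAGE tags of 4 testis libraries, 2 per group, were deposited as 3 tables: tag clusters of each group and a consensus list. Per the submitters' processing notes, Trim Galore 0.6.6, STAR 2.7.11b and bedtools were used with BDGP6 and dm6; no source used here names the cluster caller. The level column is named TPM per the file headers, but the deposited values were whole tag counts, and the number of positions per cluster was a count as well. The authors' other measure was the interquantile width in bp. Counts were scaled to 1000000 tags per table.

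Tag clusters were assigned to the consensus cluster of longest same-strand overlap. Transposable element entries were left out of the gene models. Positions used the transcript with the longest coding sequence, and 7 members lay in coding exons of 2 genes. Named clusters were the strongest of each class, the extremes of distance and width, the genes with most members, and the strongest of each family, of which 1 is not reported here. Members and lists were chosen with earlier results of these data known, and 3 family patterns were corrected after they matched unrelated genes. Ratios carry exact binomial and shares Wilson 95% intervals, which cover counting error only. The planned base composition of start sites is not analysed here. Python 3.11.15, pandas 2.3.3, numpy 2.4.6 and scipy 1.17.1 were used.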

Additional observations from a re-analysis of the deposited data

Results flagged for a closer look

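Tag clusters outside the consensus list were not used above. In coding exons they numbered 5218 in the knockdown and 1583 in control, or 149 and 28.0 per 1000000 tags, and each held at most 49 tags. They were flagged because the knockdown stood above control in data that no comparison used.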

How the results depend on the processing

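Counts of members moved with the settings, and gained members outnumbered lost ones in each. Against 5054 gained and 80 lost, a pseudocount of 0.5 TPM gave 8059 and 158, one of 3 TPM gave 2144 and 32, rescaling gave 3348 and 144, a fold limit of 2 gave 8998 and 497, and a limit of 8 gave 2479 and 19. A window of 500 bp around annotated starts left 50 lost members and 4004 gained ones. With the dominant position from the control table alone there were 5142 members, since fewer clusters were called there, and their median position was 40.1% of the coding sequence against 46.2%. The median width was 32 bp in the control table alone and 63 bp in members of at least 5 TPM, against 44 bp. The share on the first codon base lay within its interval under each of the 7 settings tried, all added after seeing the data. Of 57 clusters named for level, distance, width or family, 4 gained calls were lost after rescaling. Direction changed in 0 of them, which is no check, because pseudocount, filter and fold limit keep the sign of a ratio. Rescaling could not turn a ratio either, as the lowest positive one, 1.22 in Prosbeta4R1, was above the shift of 0.71. The gained call in salto and 1 of those in CG16972 were lost as well. No paired analysis was possible because each group is 1 pooled value, and for the same reason no library could be left out. The start-site base composition was not run. Depth limits low clusters: 3 tags are worth 0.0531 TPM (control) or 0.0858 TPM (knockdown).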
